A study of Arabidopsis thaliana with 96 samples.

Results

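Young flowers of Arabidopsis thaliana carrying the ddm1-1 mutation were examined for small RNA over regulatory DNA of AGAMOUS, with and without a transgene cassette. The members were the 12 libraries of set B, of 96 in the series, whose titles name ddm1-1. They formed 4 groups of 3 libraries: ddm1-1 with ARE//AGe and flowers of class sMf, ddm1-1 with ARE//AGe and class rMf, ddm1-1 with Ctr//AGe and class rMf, and ddm1-1 with no named cassette and flowers of class Wt, called the host here. All 4 groups share the ddm1-1 mutation, so no wild-type control stands among them, and whether plants were homozygous is not stated. Per the labels, the cassettes served to assess silencing and how often mutant flowers arose. The classes are flower phenotypes, but what sMf, rMf, ARE and Ctr stand for is not in the labels, nor which promoter or gene each cassette carries beside AGe. Each library pooled flowers of 5 to 10 plant lines that shared a phenotype, so the sMf and rMf libraries with ARE//AGe may hold different transformants. Plants were grown in 16 h light and 8 h dark at 20 to 22 degrees C for 4 to 5 weeks before transformation. No gene or marker other than AG was measured, so neither the tissue nor the mutation could be checked against the data.

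DDM1 is a chromatin remodeller of the SNF2 family that gives DNA methyltransferases access to nucleosome-bound DNA, and plants without it lose methylation over transposons and repeats. In RNA-directed DNA methylation, short interfering RNAs made from double-stranded precursors guide methylation to matching DNA, and a promoter targeted in this way can be silenced. AGAMOUS (AG, AT4G18960) encodes the MADS-box transcription factor that gives stamens and carpels their identity and ends growth of the floral meristem. Its large intron holds the enhancer that restricts AG to the centre of the flower, and LEAFY, a regulator of floral fate, binds there at sites with the core CCAATG.

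Reads were counted over 2 regions. The enhancer region, AGe, covers chr4:10384147-10387145 (TAIR10, 2999 bp), and lies in introns for at least 97.0% of its length in each of the 4 annotated AG transcripts. The promoter region, AGp, covers chr4:10380701-10382800 (2100 bp) and ends 56 bp before the annotated start of AG. Of the cytosines on both strands, 60 of 857 in AGe and 28 of 600 in AGp stand in CG, 73 and 52 in CHG, and 723 and 519 in CHH, where H is A, C or T. These are the contexts in which plants methylate DNA, and methylation itself was not measured. Every word of 24 bases in either region occurs once in the reference genome, as do 99.6% of 21-base words in AGe and 99.7% in AGp. Reads from a transgene copy and from the native AG locus fall on the same coordinates and cannot be told apart. The file header gives AGp the alternative name M2, which is not explained, with the same coordinates.

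To show the kind of sequence the reads were counted on, a 300-base stretch of each region is given on the plus strand, the strand of AG, from the RefSeq copy of TAIR10. In AGe it is the 300-base window with most CCAATG cores, at chr4:10385874-10386173, and capitals mark CCAATG or its reverse complement.
AGe window: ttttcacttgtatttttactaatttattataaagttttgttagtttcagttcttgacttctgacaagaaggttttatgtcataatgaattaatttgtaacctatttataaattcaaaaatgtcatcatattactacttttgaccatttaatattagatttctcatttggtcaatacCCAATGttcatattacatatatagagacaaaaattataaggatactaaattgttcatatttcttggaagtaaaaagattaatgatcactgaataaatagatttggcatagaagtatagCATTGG
This window holds 2 of the 4 cores in AGe. At least 1 core occurs in 12.7% of 300-base stretches of chromosome 4, which is no measure of AGe, since the window was picked for its cores. In AGp it is the end nearest the start of AG, at chr4:10382501-10382800, and capitals mark CG.
AGp window: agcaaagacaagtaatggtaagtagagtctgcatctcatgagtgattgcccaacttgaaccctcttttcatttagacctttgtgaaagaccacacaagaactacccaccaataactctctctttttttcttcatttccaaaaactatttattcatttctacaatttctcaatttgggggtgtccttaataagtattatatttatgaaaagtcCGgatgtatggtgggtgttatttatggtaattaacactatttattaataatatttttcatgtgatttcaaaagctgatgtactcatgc
It holds 1 CG and no CCAATG. The median over the 300 bases before 27438 protein-coding genes was 6 CG, and 8.19% of these windows held 1 or none. Where within a region the reads fell is not in the deposited table.

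The ddm1-1 libraries held between 2214663 and 17841865 mapped reads. The shallowest was replicate 1 of ARE//AGe rMf, and host replicates 2 and 3 held 2498525 and 3768257. A count of 0 would allow up to 3 reads, or between 0.168 and 1.35 reads per 1000000 mapped reads (RPM), and every library stood above this limit in both regions. Replicates of each group differed beyond sampling noise in their shares of reads aligned once, more than once and not at all (smallest chi-square 186 over 12 pairs, where 5.99 marks the 95% limit). None was therefore treated as a library deposited more than once.

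**Figure D1:**
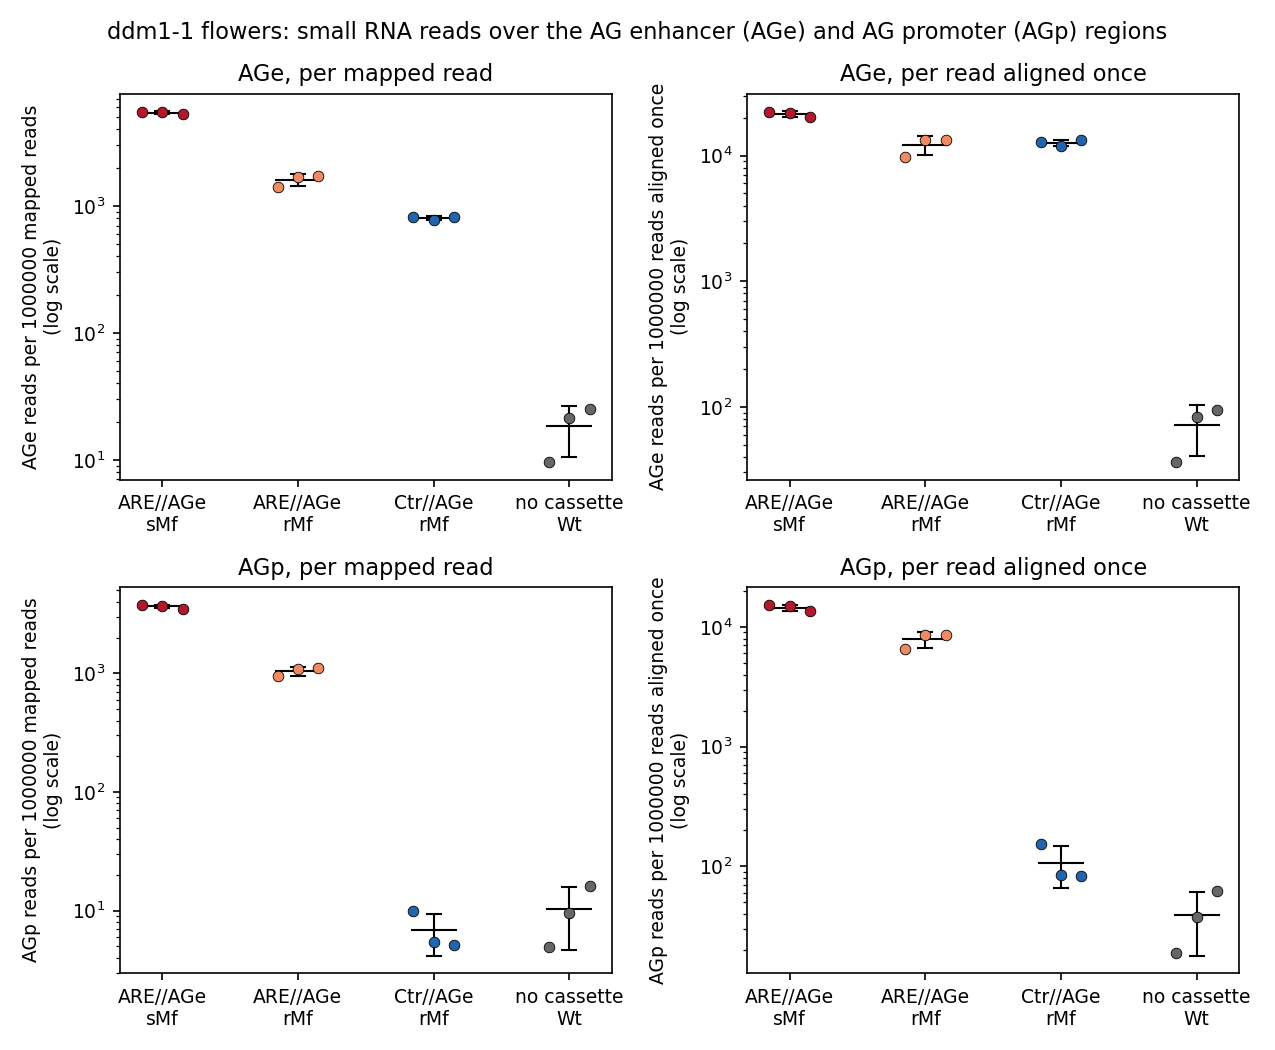
Reads over AGe (top) and AGp (bottom) in the 12 ddm1-1 libraries, per 1000000 mapped reads (left) and per 1000000 reads aligned once (right), on log axes. Points are libraries, and bars give the mean and SD of 3. AGe with Ctr//AGe stands far above the host on both sides. AGp with Ctr//AGe overlaps the host on the left and stands above it, at 2.72 times its mean, on the right, and the gap between ARE//AGe rMf and Ctr//AGe rMf in AGe is seen on the left only.

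Both cassettes went with far more AGe reads than the host had. With ARE//AGe the sMf libraries held 5539, 5501 and 5252 RPM over AGe, and the rMf libraries 1403, 1695 and 1708 RPM. With Ctr//AGe the rMf libraries held 813, 771 and 817 RPM, against 9.58, 21.2 and 24.9 RPM in the host. No library with a cassette overlapped the host, and within the host the deepest library was the lowest. The means were 5430 ± 156, 1602 ± 173 and 800.1 ± 25.6 RPM against 18.6 ± 8.01 RPM (SD, n = 3 each). The log2 change over the host was 8.23 ± 0.46 (SE) in ARE//AGe sMf, 6.47 ± 0.43 in ARE//AGe rMf and 5.47 ± 0.41 in Ctr//AGe rMf flowers. All 3 changes passed the test (edgeR adjusted p = 3.47e-20, 5.04e-18 and 2.89e-16). Of the 12 comparisons within ddm1-1 over both regions, 11 passed per mapped read and 11 per read aligned once, beside 92.3% and 88.5% of the 26 tests of set B to which they belong. The host flowers were Wt, so cassette and flower class differ together in every comparison with the host.

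The promoter region separated the cassettes. With ARE//AGe, AGp held 3768, 3706 and 3501 RPM in sMf and 942, 1094 and 1102 RPM in rMf libraries. With Ctr//AGe it held 9.86, 5.47 and 5.13 RPM, against 4.99, 9.61 and 16.2 RPM in the host. The ARE//AGe libraries all stood above the rest, and the Ctr//AGe and host libraries overlapped. The log2 change over the host was 8.54 ± 0.53 (SE) in sMf and 6.73 ± 0.49 in rMf flowers with ARE//AGe (edgeR adjusted p = 4.41e-19 and 9.91e-17). With Ctr//AGe the ratio to the host was 0.664, with a 95% interval of the fit from 0.379 to 1.24 (edgeR adjusted p = 0.202).

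The read counts behind these AGp values were 70, 68 and 49 in the Ctr//AGe libraries and 89, 24 and 61 in the host. The 95% Wilson intervals, for counting error only, ran from 4.05 to 6.14 RPM in host replicate 1, from 6.46 to 14.3 RPM in host replicate 2 and from 12.6 to 20.8 RPM in host replicate 3. The interval of replicate 1 overlapped neither of the others, so the host libraries differed by more than counting error. The Ctr//AGe change in AGp turned on single host libraries. Without host replicate 1 the log2 change was -0.96 (edgeR adjusted p = 0.0298), and without host replicate 3 it was 0.0077 (edgeR adjusted p = 0.986).

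The base on which reads are expressed differed between the groups. Reads aligned more than once made up 75.2%, 75.0% and 74.1% of mapped reads in ARE//AGe sMf libraries and 85.6%, 87.3% and 87.2% in ARE//AGe rMf libraries. In Ctr//AGe rMf libraries they made up 93.6%, 93.5% and 93.8%, against 73.6%, 74.4% and 73.7% in the host. Only the sMf and host libraries overlapped. Over the 4 groups the difference passed an exact two-sided permutation test of the 12 libraries (p = 0.00013, adjusted 0.000292 over 3 such tests, where 6.49e-05 is the smallest p possible). Between 2 groups of 3 libraries this two-sided permutation test cannot give p under 0.1. The Ctr//AGe rMf group had the highest mean share of the 11 groups in set B, and the ARE//AGe rMf group the fourth highest.

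The share of total reads that mapped also differed over the 4 groups (exact permutation p = 0.000195, adjusted 0.000292). It was 94.6% ± 0.0574 in ARE//AGe sMf, 94.7% ± 0.0674 in ARE//AGe rMf and 98.0% ± 0.153 in Ctr//AGe rMf flowers, against 96.1% ± 0.281 in the host (SD, n = 3 each). Its range was small beside that of the share aligned more than once. Reads aligned once made up 25.2%, 13.3% and 6.36% of mapped reads in ARE//AGe sMf, ARE//AGe rMf and Ctr//AGe rMf flowers, against 26.1% in the host. The nature of the reads aligned more than once is not in the table.

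**Figure D2:**
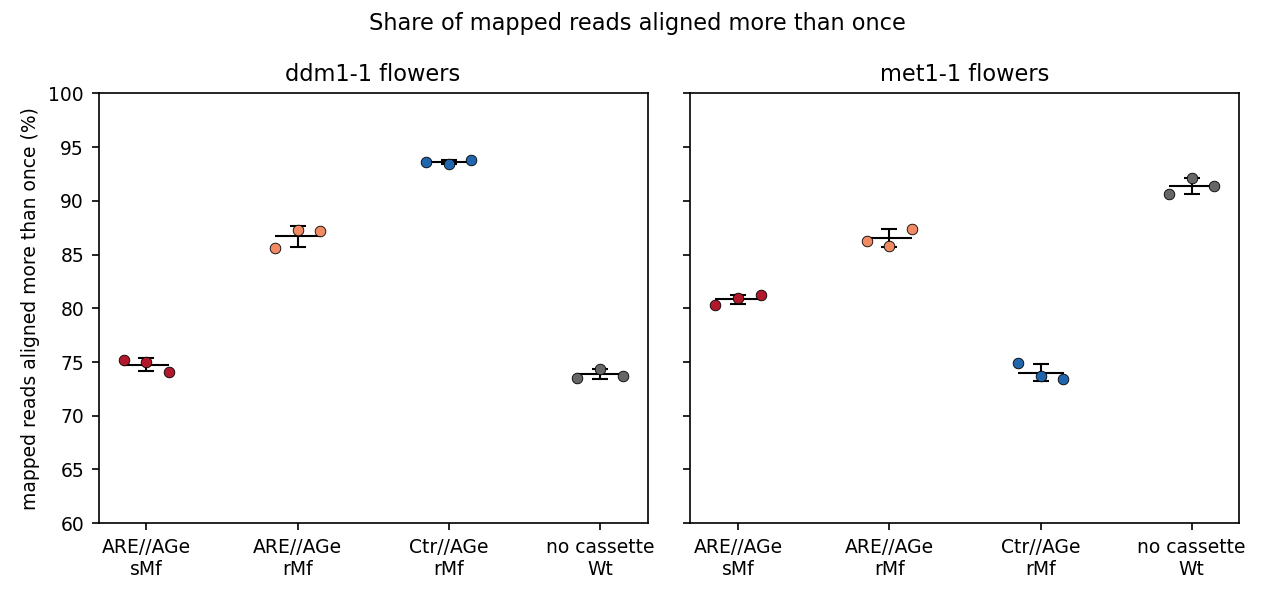
Percent of mapped reads aligned more than once in each library of the ddm1-1 groups (left) and of the met1-1 groups of the same set (right), on an axis that starts at 60%. Points are libraries, bars the mean and SD of 3. In ddm1-1 the Ctr//AGe rMf libraries are highest at 93.5 to 93.8% and the host has the lowest mean, and in met1-1 the Ctr//AGe rMf libraries are lowest and the host highest.

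Counted per read aligned once, most AGe ratios changed in size, and the call changed for ARE//AGe against Ctr//AGe in rMf flowers. Since nearly all words of the regions are unique in the genome, region reads are expected among reads aligned once, though how the authors counted reads with several hits is not given. On this base AGe took 2.15% ± 0.111 of reads aligned once in ARE//AGe sMf flowers, 1.21% ± 0.207 in ARE//AGe rMf flowers and 1.26% ± 0.0703 in Ctr//AGe rMf flowers, against 0.00714% ± 0.0031 in the host (SD, n = 3 each). AGe and AGp together took 3.60% ± 0.199, 2.01% ± 0.326 and 1.27% ± 0.0711, against 0.0111% ± 0.00515. The 3 cassette groups thus rose over the host by log2 8.27 ± 0.49, 7.45 ± 0.48 and 7.50 ± 0.48 in AGe (SE; edgeR adjusted p = 9.34e-19, 2.10e-18 and 2.10e-18).

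On the same base AGp rose with all 3 cassette groups. Per 1000000 reads aligned once it held 15191, 14828 and 13515 reads in ARE//AGe sMf libraries and 6545, 8599 and 8606 in ARE//AGe rMf libraries. With Ctr//AGe it held 154, 84.0 and 82.9, against 18.9, 37.5 and 61.7 in the host. Here Ctr//AGe and host libraries did not overlap, and the ratio of means was 2.72 with a log2 change of 1.48 ± 0.43 (SE, edgeR adjusted p = 0.00219). Per read aligned more than once the same change was negative, at log2 -0.89 (edgeR adjusted p = 0.0424). The direction of this change thus differed with the reads it was counted against.

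With flowers of 1 class, rMf, ARE//AGe was set against Ctr//AGe. Per mapped read AGe was 2.00 times as high with ARE//AGe (1602 ± 173 against 800.1 ± 25.6 RPM, log2 1.00 ± 0.34 SE, edgeR adjusted p = 0.00565), and the libraries did not overlap. Per 1000000 reads aligned once the ARE//AGe rMf libraries held 9744, 13328 and 13343 AGe reads and the Ctr//AGe rMf libraries 12724, 11825 and 13211. These overlapped, and the ratio of means was 0.964 with a 95% interval of the fit from 0.585 to 1.59 (edgeR adjusted p = 0.885). The share of mapped reads aligned once was 2.09 times as high with ARE//AGe. By arithmetic this share links the ratio per mapped read to that per read aligned once, so it is no separate result. Why the share differed was not tested.

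AGp was higher with ARE//AGe on either base. In rMf flowers the ratio was 153 per mapped read (95% interval of the fit 77.3 to 311, edgeR adjusted p = 1.19e-17) and 74.0 per read aligned once (37.7 to 148, edgeR adjusted p = 1.11e-15). For sMf flowers with ARE//AGe against rMf flowers with Ctr//AGe, where class differs too, the AGp ratios were 537 and 136. The AGe ratios in that comparison were 6.79 per mapped read (edgeR adjusted p = 2.34e-09) and 1.71 per read aligned once (edgeR adjusted p = 0.0414). The call for 1.71 did not hold firmly: without any 1 of the 6 libraries its edgeR adjusted p ran from 0.0570 to 0.102. Its size moved little, with log2 changes between 0.73 and 0.82. AGe took 2.03% to 2.23% of reads aligned once in these sMf libraries and 1.18% to 1.32% in the Ctr//AGe libraries, without overlap. In a fit of these 2 groups alone the SE was 0.079, in place of 0.36 with the spread shared over set B. The edgeR adjusted p was then 3.61e-05.

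Within ARE//AGe, sMf flowers held more reads than rMf flowers over both regions. Per mapped read AGe was 3.39 times as high (log2 1.76 ± 0.34 SE, edgeR adjusted p = 1.02e-05) and AGp 3.50 times (log2 1.81 ± 0.39 SE, edgeR adjusted p = 3.58e-05). Per read aligned once they were 1.77 and 1.83 (edgeR adjusted p = 0.0343 and 0.0363), with intervals of the fit from 1.07 to 2.93 and from 1.07 to 3.15. The groups did not overlap in either region on either base. The sMf libraries had 1.90 times the share of reads aligned once that the rMf libraries had. This again links the ratios on both bases by arithmetic and is no separate result.

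Replicate 1 of ARE//AGe rMf, the shallowest of the 12 libraries, was the lowest of its group in both regions. Without it the log2 differences per read aligned once between sMf and rMf flowers were 0.69 in AGe and 0.75 in AGp, each with an edgeR adjusted p of 0.113. They also fell short without sMf replicate 1 (edgeR adjusted p = 0.0684 and 0.0737) or sMf replicate 2 (edgeR adjusted p = 0.0647 and 0.0676). For AGp alone this held without rMf replicate 2 (edgeR adjusted p = 0.0523) or rMf replicate 3 (edgeR adjusted p = 0.0521). With these 2 groups alone in the fit the SE of the AGe difference was 0.15, in place of 0.36 with the spread shared over set B, and the edgeR adjusted p was 0.000598 in AGe and 0.000469 in AGp.

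**Figure D3:**
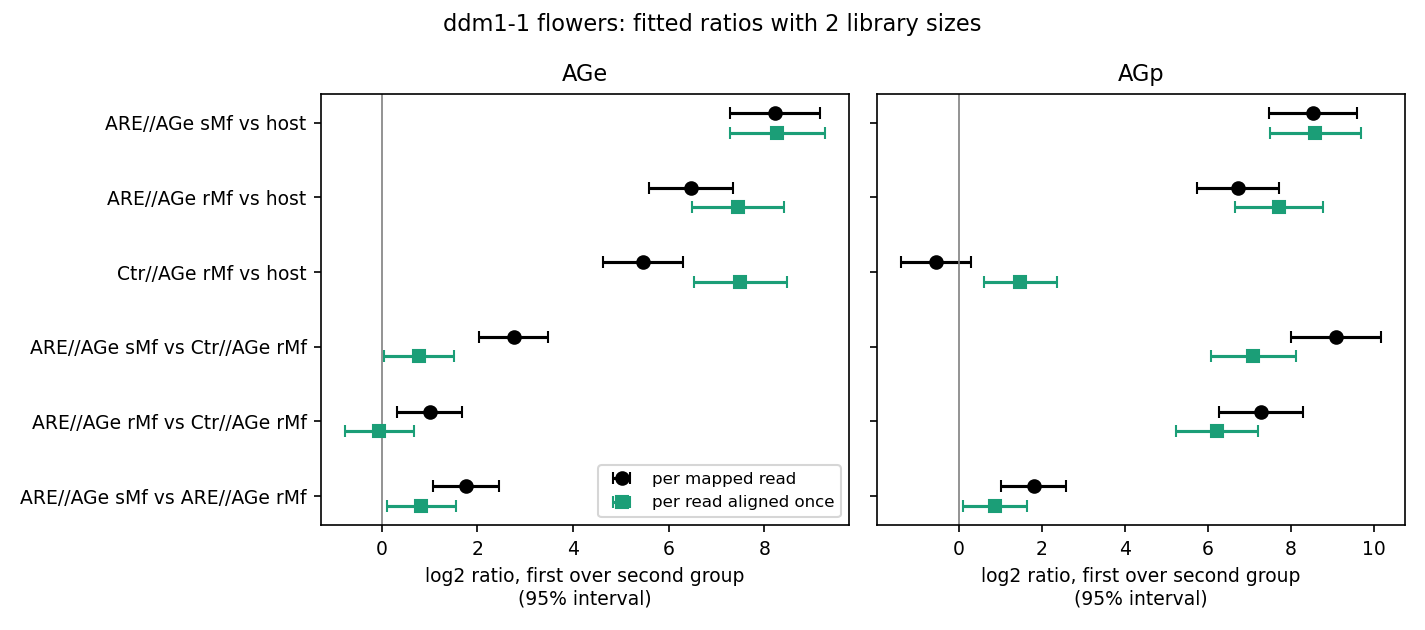
Fitted log2 ratios in ddm1-1 flowers for AGe (left) and AGp (right), first group over second, with 95% intervals. Circles are per mapped read and squares per read aligned once. For AGe the rMf cassette comparison stands at 1.00 per mapped read and -0.052 per read aligned once, while for AGp it stays above 6 on both.

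The number of AGp reads per AGe read needs no library size. It was 0.680, 0.674 and 0.667 in ARE//AGe sMf libraries and 0.672, 0.645 and 0.645 in ARE//AGe rMf libraries. With Ctr//AGe it was 0.0121, 0.0071 and 0.00628, against 0.520, 0.453 and 0.649 in the host. The Ctr//AGe libraries stood apart from all others, while the rMf libraries with ARE//AGe overlapped both the sMf libraries and the host. Over the 4 groups the log2 ratio differed in an exact two-sided permutation test (p = 0.00143, n = 12 libraries, adjusted 0.00143 over 3 tests). Between sMf and rMf flowers with ARE//AGe the ratios differed 1.03-fold, with an exact permutation p = 0.2 for 3 against 3 libraries. In log2 the Ctr//AGe mean was -6.94 ± 0.505, against -0.90 ± 0.262 in the host (SD, n = 3 each).

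**Figure D4:**
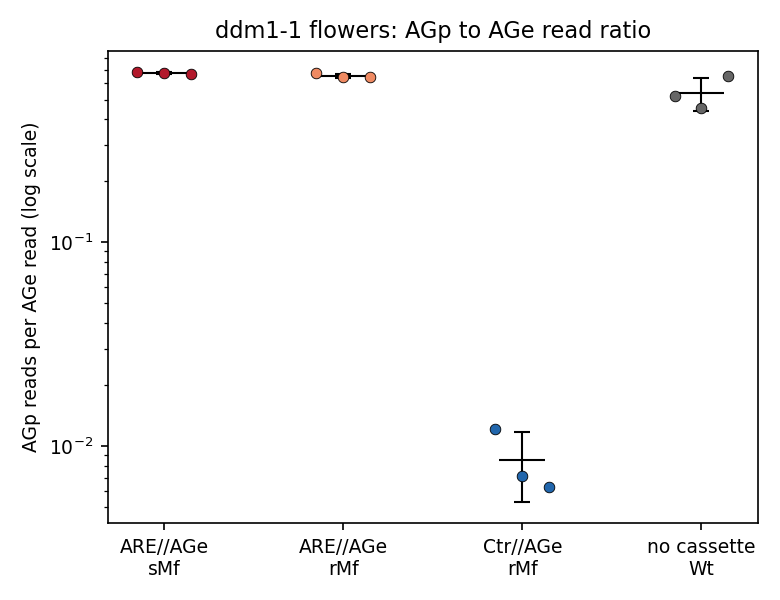
AGp reads per AGe read in each ddm1-1 library, on a log axis, with the mean and SD of 3. The ARE//AGe libraries lie between 0.645 and 0.680, the Ctr//AGe libraries between 0.00628 and 0.0121, and the host between 0.453 and 0.649.

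The same contrasts were set against those of met1-1, the mutant of the CG maintenance methyltransferase MET1, whose flowers carried the same cassettes in the same classes and set. Per mapped read, 4 of 10 differences between the mutants passed, or 40% (edgeR, Benjamini-Hochberg over the 10). The rise of AGe with Ctr//AGe over the host was smaller in ddm1-1, at 43.1-fold against 537-fold in met1-1 (difference of log2 changes -3.60 ± 0.50 SE, edgeR adjusted p = 8.75e-08). For AGp with Ctr//AGe the ratio to the host was 0.664 in ddm1-1 against 6.75 in met1-1 (-3.30 ± 0.59, edgeR adjusted p = 4.88e-06). In rMf flowers the AGe ratio of ARE//AGe to Ctr//AGe was 2.00 in ddm1-1 against 0.287 in met1-1 (2.81 ± 0.48, edgeR adjusted p = 3.67e-06). The AGp ratio was 153 in ddm1-1 against 33.8 in met1-1 (2.19 ± 0.55, edgeR adjusted p = 0.000651). Without replicate 1 of met1-1 with Ctr//AGe the AGp differences were -2.64 and 1.55.

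None of the 10 differences between the mutants passed per read aligned once, or 0% (edgeR, 0 of 10 also at unadjusted p under 0.05, and 0 by DESeq2 and limma). Ctr//AGe flowers then stood 176-fold over the host in AGe in ddm1-1 and 177-fold in met1-1, and 2.72-fold and 2.27-fold in AGp. The AGp value of met1-1 rested much on replicate 1 with Ctr//AGe, at 175 AGp reads per 1000000 aligned once, against 63.1 and 59.3 in the other libraries of its group. Without that library the AGp difference of log2 changes was 1.01, in place of 0.31 with all libraries. Without host replicate 3 of ddm1-1 it was 0.85, and neither passed (edgeR adjusted p = 0.236 and 0.261). The 95% interval of the difference in AGe ran from -1.02 to 1.08. In rMf flowers the AGe ratio of ARE//AGe to Ctr//AGe was 0.964 in ddm1-1 and 0.552 in met1-1, with the difference from -0.22 to 1.83. The share of reads aligned more than once was in opposite order in the mutants: 93.6% ± 0.17 with Ctr//AGe against 73.9% ± 0.432 in the host of ddm1-1, and 74.0% ± 0.791 against 91.4% ± 0.766 in met1-1 (SD, n = 3 each). The share of mapped reads aligned once changed by log2 -2.04 with Ctr//AGe over the host in ddm1-1, and by 1.59 in met1-1. From Ctr//AGe to ARE//AGe in rMf flowers it changed by 1.06 in ddm1-1 and -0.95 in met1-1. By arithmetic, these changes link the mutant differences per mapped read to those per read aligned once, so they are no separate result. Why the share differed was not tested.

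For ARE//AGe over the host, and for sMf against rMf flowers, no difference between the mutants passed on either base with all libraries in the fit. Without host replicate 1 of ddm1-1, that for ARE//AGe rMf over the host passed per mapped read, at -1.15 in AGe and -1.51 in AGp (edgeR adjusted p = 0.0225 and 0.0147). The sMf to rMf ratio of AGe was 3.39 in ddm1-1 against 2.44 in met1-1 per mapped read (edgeR adjusted p of the difference 0.401) and 1.77 against 1.72 per read aligned once (edgeR adjusted p = 0.954). Per read aligned once, the 95% interval of that difference ran from -0.97 to 1.07 in log2.

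**Figure D5:**
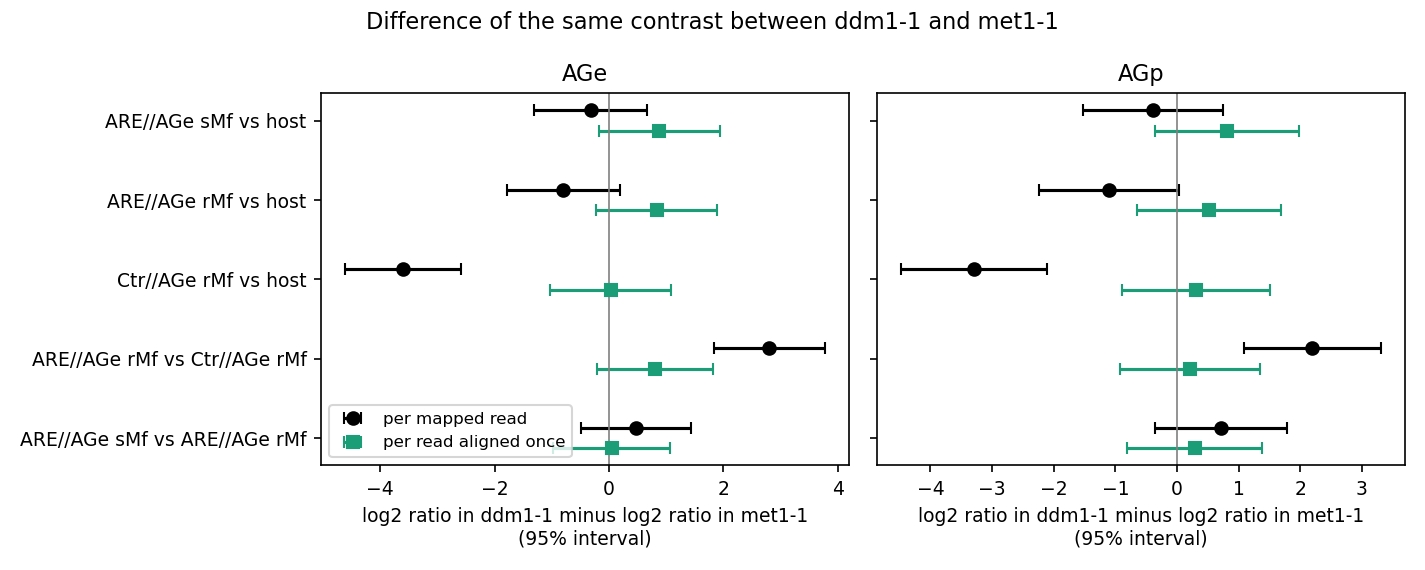
Log2 ratio in ddm1-1 minus the same log2 ratio in met1-1 for AGe (left) and AGp (right), with 95% intervals. Circles are per mapped read and squares per read aligned once. The 4 circles whose intervals miss 0 involve Ctr//AGe, and all squares have intervals that include 0.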

How the data were processed

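Per the labels' protocols, small RNA libraries of set B were made from 200 to 500 ng of total RNA with a TruSeq kit. The authors used Bowtie, HTSeq 0.13.5 and TAIR10, per the submitters' processing notes. How reads were trimmed, aligned and, where they hit several places, counted is not given in the sources. Per the file headers, the authors deposited read counts per library (total, aligned once, aligned more than once, mapped, AGe and AGp), a percent of reads aligned and RPM for both regions. The deposited RPM equalled region counts per 1000000 mapped reads in all 96 libraries. The deposited percent stood 0.526 to 0.69 points above mapped over total reads in the ddm1-1 libraries, so it was not used.

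Counts were tested with the two-sided quasi-likelihood F test of edgeR 4.0.16 (R 4.3.3) and no filter on low counts, with mapped reads or reads aligned once as library size. The 32 libraries of set B entered 1 fit with a mean per group and a common dispersion, pooled over both regions, which share libraries. Benjamini-Hochberg adjustment ran over the 26 cassette, host and class tests of set B, and over the 10 differences between mutants, with a threshold of 0.05. Intervals come from the fit and use its 42 degrees of freedom, which count both regions of a library as independent. Where the regions of a library vary together, intervals may be too narrow and p too small. Ratios are of group means. Wilson intervals and the 3-read limit include no error beyond counting, as no molecular identifiers are given. Shares and AGp to AGe ratios were compared by exact permutation over libraries. Alternatives were DESeq2 1.42.0, limma 3.58.1 on log2 of reads per 1000000 plus 1 or 0.5, other library sizes, fewer groups in the fit, a filter of 10 reads, a replicate block and leaving out each library. Each replicate library is a pool of lines, and whether replicates come from separate plantings is not stated.

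Both regions were named, as only 2 were measured. The groups, comparisons and alternatives were chosen with earlier results of these data known. Coordinates are those of the file headers, and the annotation is the RefSeq copy of TAIR10 (chromosome 4 of 18585056 bp).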

Additional observations from a re-analysis of the deposited data

Results flagged for a closer look

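Under the same contrast ddm1-1 and met1-1 differed in 4 values per mapped read, each by the test of the difference itself. For Ctr//AGe over the host the log2 change in ddm1-1 minus that in met1-1 was -3.60 for AGe (5.47 in ddm1-1 and 9.07 in met1-1) and -3.30 for AGp (-0.55, which did not pass, in ddm1-1 and 2.75 in met1-1). For ARE//AGe against Ctr//AGe in rMf flowers the log2 change in ddm1-1 minus that in met1-1 was 2.81 for AGe, where the changes had opposite signs (1.00 in ddm1-1 and -1.80 in met1-1), and 2.19 for AGp, where both were positive (7.28 and 5.08). Per read aligned once these became 0.030, 0.31, 0.80 and 0.21, and none passed (edgeR). By arithmetic, the share of mapped reads aligned once links the values on both bases. The 4 values share the Ctr//AGe libraries and are not separate findings.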

How the results depend on the processing

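Of 770 recomputed values, 728 were scored as unchanged. Of these, 392 came from leaving out 1 library, and such fits share most of their libraries. The direction reversed in 6 values under other settings and in 11 with 1 library left out. For log2 ratios this meant the same direction and side of the threshold, and for exact permutation p the same side. Counts of tests passed were also among the values, and were scored as unchanged where they moved little. With reads aligned once as library size, the differences between mutants per mapped read became 0.88 and 0.81 (ARE//AGe sMf over host, AGe and AGp), 0.84 and 0.52 (ARE//AGe rMf), 0.030 and 0.31 (Ctr//AGe), and 0.80 and 0.21 (ARE//AGe to Ctr//AGe in rMf). With reads aligned more than once as library size, AGp with Ctr//AGe over the host (-0.89) and the mutant differences for ARE//AGe rMf (-1.10 and -1.41) passed. Per read aligned once, limma with 0.5 added left the sMf ARE//AGe to Ctr//AGe change of AGe (0.78) and the sMf to rMf change of AGp (0.88) short of the threshold. With a replicate block in the fit of the 4 ddm1-1 groups, 11 of 12 tests passed per mapped read and 10 per read aligned once, where AGe of sMf ARE//AGe against Ctr//AGe fell short (0.78, edgeR adjusted p = 0.0639). Same-numbered libraries deviated together in 2 of 6 pairs of groups (correlations 0.559 and 0.94) and in opposite directions in the other 4 (down to -0.847), so the numbers were not taken as pairs. The filter of 10 reads removed AGp from the fit of set B.

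With single libraries left out, log2 values per mapped read ran from -0.96 to 0.0077 for AGp with Ctr//AGe over the host, and for the mutant differences from -0.80 to 0.17 (AGp, ARE//AGe sMf over host), -1.15 to -0.48 and -1.51 to -0.54 (AGe and AGp, ARE//AGe rMf over host). Per read aligned once they ran from 0.73 to 0.82 (AGe, sMf ARE//AGe to Ctr//AGe), 0.69 to 0.90 and 0.75 to 0.94 (AGe and AGp, sMf to rMf), and -0.13 to 0.083 (AGe, ARE//AGe to Ctr//AGe in rMf). The mutant differences then ran from -0.33 to 0.33 and -0.11 to 1.01 (AGe and AGp, Ctr//AGe over host), -0.087 to 0.12 (AGe, sMf to rMf) and -0.48 to 0.56 (AGp, ARE//AGe to Ctr//AGe in rMf). The cause of these shifts was not tested. AGp of Ctr//AGe and host rested on 187 and 174 reads in all, and the host libraries differed by more than counting error.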
